A study of Oncorhynchus mykiss with 72 samples.

Results

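Gill RNA of redband trout (Oncorhynchus mykiss) held 45 features that were at least 4-fold higher at 28 °C than at 15 °C on day 1 in every strain and were less than 2-fold higher at 28 °C on days 7 and 28 in every strain. They are 45 of the 25137 features listed in any of the 3 strain tables and of the 23234 listed in all 3. A feature is 1 entry of the transcriptome that the reads were matched to. The choice was made from medians of log2(value + 0.5) in 3 libraries at 28 °C minus 3 at 15 °C, where the value is the authors' normalised read count. It asked for an overall mean of at least 5 and a median above 1 over the 15 °C libraries of each strain, which 16732 features met. Of these, 294 had a day 1 difference of at least 2 on the log2 scale in every strain, 56 of the 294 had a day 7 difference under 1 in every strain, and 45 of the 56 also had a day 28 difference under 1. The members were therefore 15.3% of the features raised on day 1 in all strains. Because the differences of days 1, 7 and 28 chose the members, those days are described below without a test. Day 3 values entered the choice only through the overall mean and the median over the 15 °C libraries.

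The study sampled gills of 3 strains on days 1, 3, 7 and 28 under heat (28 °C) and at a control temperature (15 °C). The strains were Little Jacks (a desert creek), the F1 cross of Little Jacks with Keithly (F1 fish), and Keithly (a montane creek). Each strain, day and temperature had 3 libraries, giving 24 groups and 72 libraries, and each library was RNA pooled from 3 samples of 1 rearing tank. The p-values given here thus reflect how far such pools differ.

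The gill is the surface through which a fish exchanges gases and ions with the water, so its cells take the temperature of the water directly. In fish, as in other animals, a sudden rise in temperature activates heat shock factor 1, which switches on chaperone genes, and the accumulating chaperones then hold this factor back. Early stress transcripts can therefore return towards their starting level while the heat goes on. The tables identify features by codes without names, of which 0 of 25137 are found in the reference table of trout genes, so no function can be given to a member and the gill label could not be checked against cell type markers. Members are called by their rank in mean level at 28 °C on day 1, from 1 (highest) to 45, averaged over tables that were normalised separately, and only the first and second are given by identifier. In such bulk tissue, more cells of a type and more RNA per cell cannot be told apart.

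Reads recovered from the deposited values ranged from 0.276 to 19.9 M per library (median 6.41 M, 69 libraries), with under 1 M in 3 of them. In Keithly this was 15 °C day 28 replicate 1 (0.276 M). In F1 fish these were 28 °C day 28 replicate 1 (0.455 M) and 15 °C day 3 replicate 1 (0.614 M). Finding 3 reads in a library corresponded to values of 0.132 to 9.24, which covers counting error only. Over the 16732 features that met the limits on mean and 15 °C median, 7 libraries stood apart from the others of their groups. They lay beyond the largest gap on the main axis of deviations from group means. In Little Jacks they were 28 °C day 1 replicate 1, day 7 replicate 3 and day 28 replicate 3. In F1 fish they were 28 °C day 28 replicate 2 and 15 °C day 28 replicate 2. In Keithly they were 28 °C day 28 replicate 3 and 15 °C day 28 replicate 2. None of the 7 was from day 3. Beside the results they bear on most, values without them are also given.

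Some members lay close to the limits of the rule. Within 0.1 of the limit were 6 of the 45 for day 1, 4 for day 7 and 2 for day 28. The smallest day 1 difference of a member was 2.02 on the log2 scale in its lowest strain, and the nearest feature outside had 1.97. The largest day 7 difference of a member was 0.998 in its highest strain, next to 1.002 for the nearest feature outside. For day 28 these values were 0.92 inside and 1.02 outside. A further 48 features met the day 1 and day 28 limits and missed the day 7 limit, and 11 missed the day 28 limit alone. At the other end, 83 of the 294 features kept a difference of at least 1 on both days in every strain. All 45 members carried identifiers of the g class and 0 were singletons, a class that made up 262 of the 16732 eligible features.

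The highest member, g07822, was raised about 5-fold on day 1 and its mean at 28 °C was lower on every later day. In Little Jacks its normalised values on day 1 were 671, 1072 and 890.3 at 28 °C, against 198, 178 and 187 at 15 °C. In F1 fish they were 1114, 908 and 1022 at 28 °C, against 195, 188 and 192 at 15 °C. In Keithly they were 1019, 1197 and 1069.8 at 28 °C, against 265, 182 and 186 at 15 °C. The 28 °C and 15 °C libraries did not overlap in any strain on that day, which the choice of members favours. The lowest 28 °C library, Little Jacks replicate 1, is among the 7 that stood apart.

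On day 3, whose heat difference took no part in the choice, g07822 was still higher at 28 °C in all 3 strains. Its values were 351, 456 and 399 at 28 °C in Little Jacks, against 188, 175 and 191 at 15 °C. F1 fish had 513, 436 and 399 at 28 °C, against 152, 222 and 214 at 15 °C, and Keithly had 428, 476 and 472 at 28 °C, against 172, 216 and 223 at 15 °C. Every 28 °C library was above every 15 °C library of its strain. The day 3 log2 fold change was 1.11 in Little Jacks (SE 0.22, limma adjusted p = 0.00381), 1.21 in F1 fish (SE 0.20, limma adjusted p = 0.000483) and 1.18 in Keithly (SE 0.17, limma adjusted p = 0.000111). It was the 1 member called higher on day 3 in all 3 strains. With values scaled to the column total the Little Jacks call was lost, at a log2 fold change of 0.90 (limma adjusted p = 0.237).

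On day 7 every 28 °C library of g07822 was still above every 15 °C library of its strain. Its values on that day were 342, 376 and 234 at 28 °C in Little Jacks, against 195, 192 and 143 at 15 °C. F1 fish had 496, 344 and 322 at 28 °C, against 276, 229 and 240.4 at 15 °C, and Keithly had 334, 438 and 438 at 28 °C, against 278, 303 and 247 at 15 °C. On day 28 Little Jacks had 296, 286 and 166 at 28 °C, against 241, 210.1 and 229 at 15 °C. In F1 fish on day 28 they were 257, 209.8 and 256 at 28 °C, against 263, 157 and 234 at 15 °C. The day 28 groups overlapped in both of these strains. In Keithly on day 28 the values were 339.7, 456 and 307 at 28 °C, against 268, 194 and 232 at 15 °C, and these groups did not overlap.

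The next member by level, g00749, also peaked on day 1, but its day 3 values stood apart less clearly. On day 1 the values were 552, 806 and 719 at 28 °C in Little Jacks, against 133, 147 and 143 at 15 °C. They were 888, 686 and 754 at 28 °C in F1 fish, against 130.0, 145 and 135 at 15 °C, and 801, 1059 and 870.3 at 28 °C in Keithly, against 220.3, 127 and 181 at 15 °C. All day 1 libraries at 28 °C were above all at 15 °C. On day 3 Little Jacks had 216, 286 and 202 at 28 °C, against 197, 147 and 174 at 15 °C, a log2 fold change of 0.44 that was not called (SE 0.24, limma adjusted p = 0.313). F1 fish had 349, 209 and 261 at 28 °C, against 108, 152 and 153 at 15 °C, a log2 fold change of 0.98 (SE 0.22, limma adjusted p = 0.00679). Keithly had 244, 322 and 314 at 28 °C, against 149, 161 and 195 at 15 °C, a log2 fold change of 0.80 (SE 0.22, limma adjusted p = 0.0252). The 28 °C and 15 °C libraries did not overlap on day 3 in any strain. These calls were not stable: without the libraries that stood apart the Little Jacks value passed (limma adjusted p = 0.0362), and scaling to the column total ended both the F1 call (limma adjusted p = 0.119) and the Keithly call (limma adjusted p = 0.170). The F1 call was also lost without 28 °C day 3 replicate 1 (limma adjusted p = 0.0585). The Keithly call was also lost without 28 °C day 3 replicate 2 (limma adjusted p = 0.0970) or replicate 3 (limma adjusted p = 0.0997), and without 15 °C day 3 replicate 1 (limma adjusted p = 0.108) or replicate 2 (limma adjusted p = 0.0881).

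**Figure D1:**
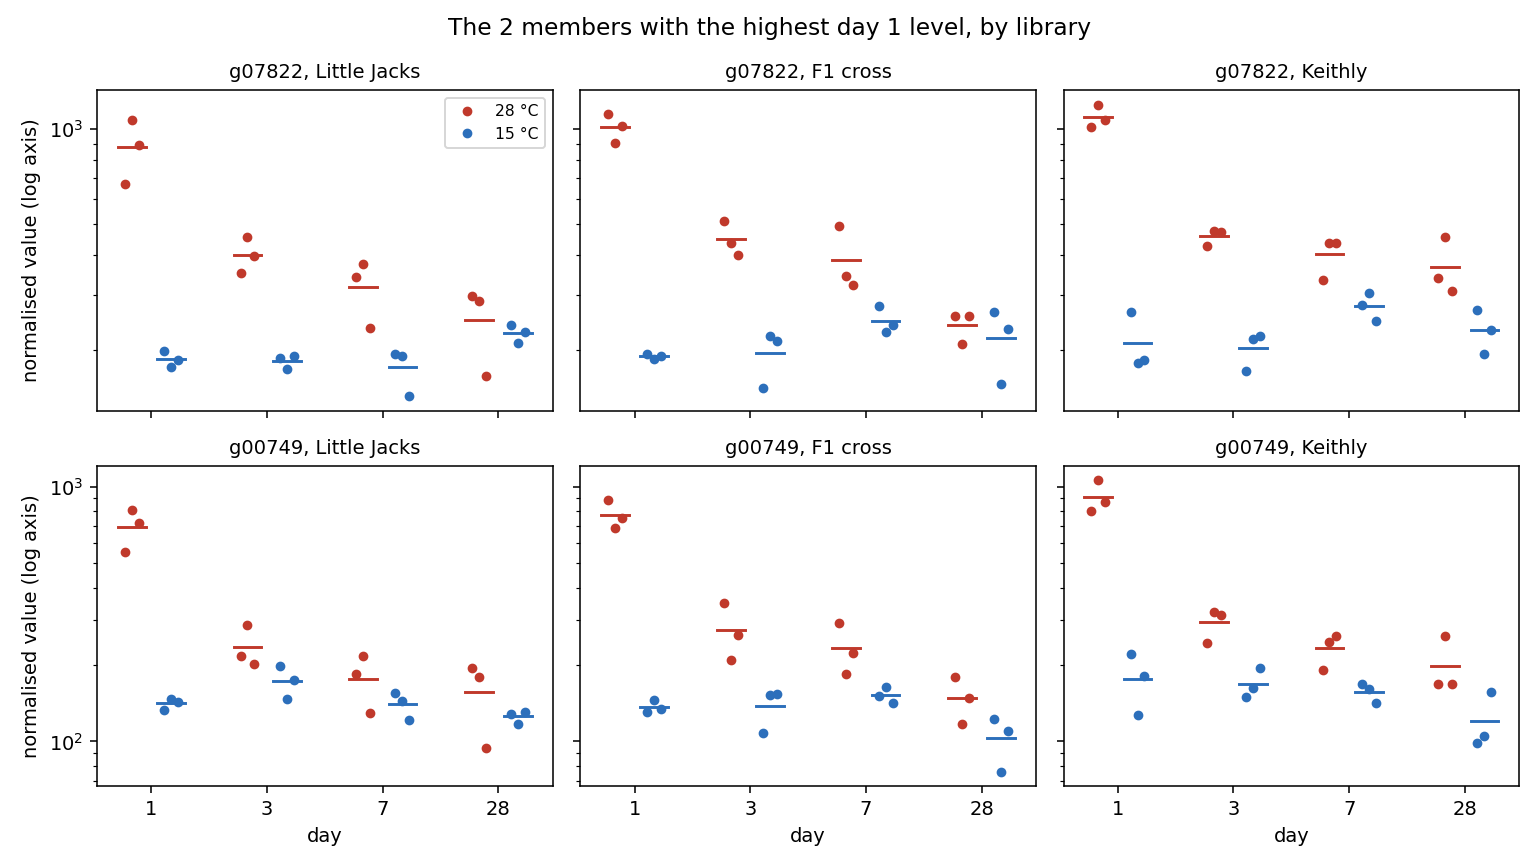
Normalised values (log axis) of g07822 (top row) and g00749 (bottom row) by day in Little Jacks, F1 fish and Keithly. Points are single libraries, with 28 °C left of 15 °C at each day, and lines are means of 3 libraries. The 28 °C libraries stand well above the 15 °C libraries on day 1 and lie nearer to them on days 3, 7 and 28.

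Summed over the 45 members, the normalised values on day 1 averaged 6863 at 28 °C in Little Jacks, against 1048 at 15 °C. They averaged 8015 at 28 °C in F1 fish, against 1144 at 15 °C, and 7948 at 28 °C in Keithly, against 1159.6 at 15 °C. As a share of all values in a library, the members took 0.456% ± 0.127 at 28 °C on day 1 in Little Jacks, against 0.127% ± 0.00281 at 15 °C (SD, n = 3 each). In F1 fish they took 0.567% ± 0.0297 at 28 °C, against 0.132% ± 0.00973 at 15 °C, and in Keithly 0.529% ± 0.0418 at 28 °C, against 0.131% ± 0.0140 at 15 °C (SD, n = 3 each). The wide spread in Little Jacks came with replicate 1, a library that stood apart: its share was 0.315%, next to 0.561% and 0.491% in replicates 2 and 3. The 15 °C share stayed between 0.120% and 0.161% as a group mean over all days and strains.

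On later days the share at 28 °C came closer to that at 15 °C, with group means above it except in Little Jacks on day 28. On day 3 it was 0.181% ± 0.0141 at 28 °C in Little Jacks, against 0.136% ± 0.00209 at 15 °C, and 0.192% ± 0.0189 at 28 °C in F1 fish, against 0.137% ± 0.00575 at 15 °C (SD, n = 3 each). In Keithly it was 0.191% ± 0.00515 at 28 °C on day 3, against 0.146% ± 0.0102 at 15 °C (SD, n = 3 each). On day 3 all 28 °C libraries were above all 15 °C libraries in each strain. By day 28 the group means were 0.124% at 28 °C in Little Jacks, against 0.143% at 15 °C, 0.139% at 28 °C in F1 fish, against 0.120% at 15 °C, and 0.161% at 28 °C in Keithly, against 0.127% at 15 °C. The day 28 groups overlapped in every strain. The lowest 28 °C share on day 28, 0.0607%, was that of Little Jacks replicate 3, another library that stood apart. Without the libraries that stood apart the Little Jacks direction turned, with a mean of 0.156% at 28 °C, against 0.143% at 15 °C. The means were then 0.157% at 28 °C in F1 fish, against 0.146% at 15 °C, and 0.178% at 28 °C in Keithly, against 0.138% at 15 °C. Of these remaining day 28 libraries, those of 28 °C and 15 °C overlapped in F1 fish and not in Little Jacks or Keithly.

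**Figure D2:**
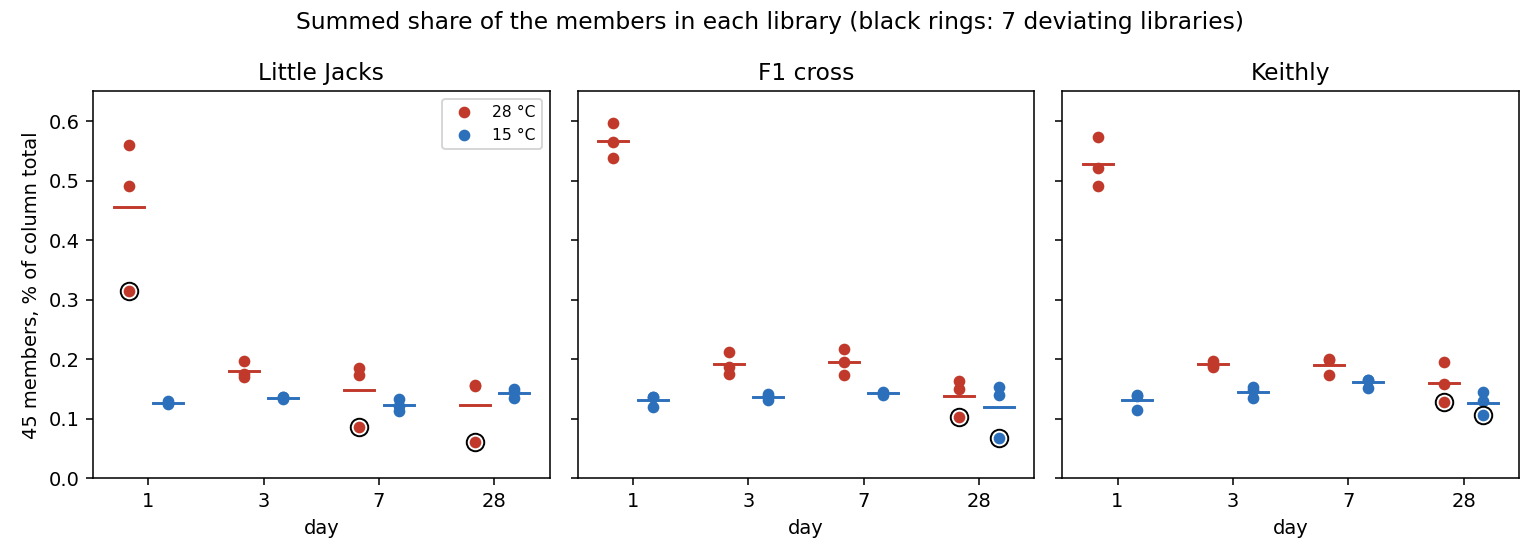
Summed value of the 45 members as a percent of the column total (vertical axis) by day for each library of the 3 strains, 28 °C left of 15 °C. Lines are means of 3 libraries and black rings mark the 7 libraries that stood apart from the others of their groups. The 28 °C groups average 0.456% to 0.567% on day 1 and 0.181% to 0.192% on day 3, and each ringed library is the lowest of its group.

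Taken member by member, the rise on day 1 was at least 2 on the log2 scale in every strain by the rule, so its size is a description. Day 1 values in a strain that took no part in the choice are given below. The median difference, 28 °C minus 15 °C, was 2.70 on the log2 scale in Little Jacks (range 2.04 to 6.27), 2.82 in F1 fish (2.02 to 5.27) and 2.87 in Keithly (2.05 to 4.84). The Little Jacks median was 2.88 without the library that stood apart. The 249 other features raised on day 1 in all strains had medians of 3.21, 3.30 and 3.25 in the same order of strains. On day 1 all 28 °C libraries were above all 15 °C libraries for 45 of 45 members in each strain. Over all features in the 3 tables this held for 15.5% in Little Jacks, 19.3% in F1 fish and 18.7% in Keithly, and since the choice used these libraries nothing is read from the count. Across the 45 members, Pearson's r of the day 1 differences was 0.73 between Little Jacks and F1 fish, 0.71 between Little Jacks and Keithly and 0.65 between F1 fish and Keithly. These are descriptions across features, which are not independent replicates and were chosen for being high in each strain.

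The member ranked 18 had the largest mean day 1 difference of the 45, 5.40 on the log2 scale, and was near its 15 °C level by day 3. On day 1 its values were 54.6, 129 and 122 at 28 °C in Little Jacks, against 2.07, 0.938 and 1.10 at 15 °C. They were 137, 205 and 121 at 28 °C in F1 fish, against 3.07, 1.63 and 5.30 at 15 °C, and 67.2, 121 and 95.2 at 28 °C in Keithly, against 9.54, 2.05 and 3.28 at 15 °C. The 28 °C libraries were thus far above every 15 °C library of their strain. On day 3 it had 5.69, 6.78 and 3.91 at 28 °C in Little Jacks, against 3.71, 1.76 and 2.83 at 15 °C. F1 fish had 4.59, 2.62 and 4.78 at 28 °C, against 0, 2.28 and 6.16 at 15 °C, and Keithly had 2.20, 1.77 and 3.29 at 28 °C, against 2.40, 5.01 and 4.28 at 15 °C. The day 3 groups overlapped in F1 fish and in Keithly, and limma called no day 3 difference for this member in Little Jacks (log2 fold change 0.88, SE 0.40, adjusted p = 0.199), F1 fish (1.06, SE 0.71, adjusted p = 0.370) or Keithly (-0.57, SE 0.66, adjusted p = 0.728). This member was at 0 in F1 15 °C day 3 replicate 1, F1 28 °C day 28 replicates 1 and 3, and Keithly 15 °C day 28 replicate 1. These libraries enter the spread used in the F1 and Keithly fits. Why the SE was larger in these strains was not tested.

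The member ranked 25 came next, with a mean day 1 difference of 4.42 on the log2 scale. Its day 1 values were 32.1, 71.9 and 58.2 at 28 °C in Little Jacks, against 2.19, 2.28 and 2.74 at 15 °C. They were 74.2, 170.2 and 90.0 at 28 °C in F1 fish, against 5.07, 4.14 and 6.22 at 15 °C, and 56.6, 81.8 and 72.6 at 28 °C in Keithly, against 1.87, 2.73 and 2.05 at 15 °C. On day 3 all 9 libraries at 28 °C had values below 5, and the mean of the 3 day 3 fold changes was -0.37 on the log2 scale with no call in any strain. In Little Jacks on day 7 the 28 °C values were 2.33, 2.00 and 10.9, against 2.91, 2.46 and 1.57 at 15 °C. On day 28 they were 1.79, 3.62 and 10.1 at 28 °C, against 4.39, 5.24 and 1.90 at 15 °C. The high value in both 28 °C groups was that of replicate 3, a library that stood apart.

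**Figure D3:**
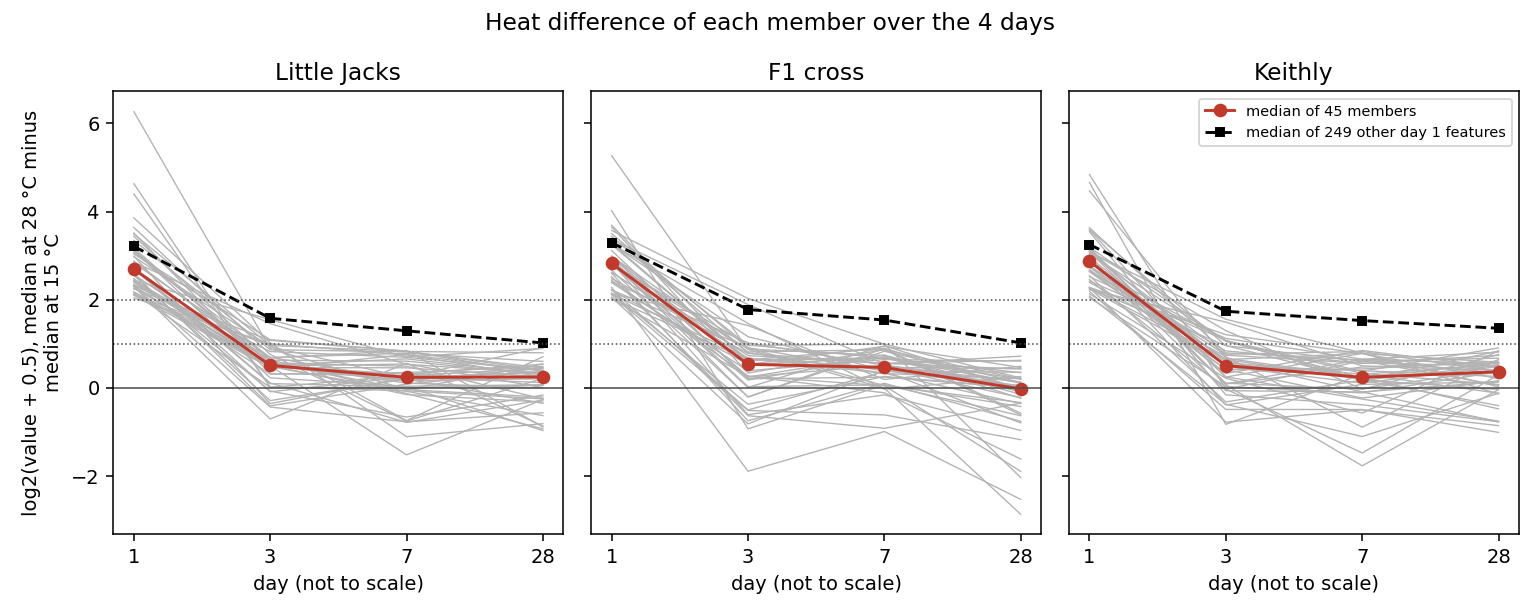
Difference of log2(value + 0.5), median of 3 libraries at 28 °C minus median of 3 at 15 °C (vertical axis), by day (not to scale) for each of the 45 members (grey lines) in the 3 strains. The red line is the members' median and the dashed black line that of the 249 other features raised on day 1, and dotted lines mark the limits of 2 and 1. The members' medians are 2.70 to 2.87 on day 1 and 0.51 to 0.54 on day 3, where the other day 1 features had 1.58 to 1.78.

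Most of the day 1 difference was gone by day 3. The members' median difference on day 3 was 0.51 on the log2 scale in Little Jacks, 0.54 in F1 fish and 0.51 in Keithly, and the 249 other day 1 features had 1.58, 1.78 and 1.74 in the same order. The members' day 3 difference was a median of 20.1% of their own day 1 log2 difference in Little Jacks, 16.6% in F1 fish and 16.9% in Keithly. Averaged over the strains, 30 of 45 members had less than 25% of the day 1 log2 difference on day 3, 9 of these were below 0, and 1 had more than 50%. The limits on days 7 and 28 that chose the members favour a low value on day 3, so the gap to the other day 1 features is a description.

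The day 3 test over all features called a minority of the members. In Little Jacks limma called 6 of 45 members higher at 28 °C and 0 lower, with 4.12% of all features called higher and 3.55% lower. In F1 fish it called 5 higher and 0 lower, with 6.38% of all features called higher and 3.94% lower. In Keithly it called 8 higher and 0 lower, with 4.03% of all features called higher and 3.22% lower. The called shares of the members were 13.3%, 11.1% and 17.8%, where those of the 16732 eligible features were 5.42%, 7.16% and 5.45%. Among the 249 other day 1 features, 191, 201 and 193 were called higher. At an unadjusted limma p under 0.05, 17 members were higher and 1 lower in Little Jacks, 17 higher and 1 lower in F1 fish, and 15 higher and 0 lower in Keithly. In either direction, 21.6%, 25.3% and 19.9% of all features had such a p. edgeR's quasi-likelihood test on recovered reads called 10, 5 and 9 members higher and 0 lower in each strain. The shares of all features that edgeR called are not given here. At an unadjusted edgeR p under 0.05, 19, 16 and 19 members were higher and 1, 2 and 1 lower. Such a p was reached in either direction by 25.1%, 21.2% and 22.5% of all features.

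These counts rest on few libraries. In Little Jacks the count was 16 without the libraries that stood apart, 12 from the day 3 libraries alone, 10 without 28 °C day 28 replicate 3, 3 without 28 °C day 3 replicate 1, and 2 without any 1 of 28 °C day 3 replicate 2, 15 °C day 3 replicate 1 and 15 °C day 3 replicate 2. In F1 fish it was 2 without 28 °C day 3 replicate 1, 3 without 28 °C day 3 replicate 3 and 8 without 15 °C day 3 replicate 3. It was 4 without the F1 libraries under 1 M reads. These include 15 °C day 3 replicate 1 (0.614 M), 1 of the 3 control libraries of this test. The F1 count of members called lower was 1 without any 1 of 28 °C day 28 replicate 1, 15 °C day 1 replicate 3 and 15 °C day 3 replicate 3. In Keithly the count called higher was 5 without 28 °C day 3 replicate 2 and 4 without 15 °C day 3 replicate 1. With values scaled to the column total, which moves the day 3 median over all features by -0.20 in Little Jacks, -0.17 in F1 fish and -0.27 in Keithly (log2), the counts were 1, 2 and 3. The members' median fold change kept its sign under that scaling, at 0.36, 0.37 and 0.17 on the log2 scale.

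The members' day 3 fold changes leaned upwards in each strain. The median log2 fold change from limma was 0.54 in Little Jacks with 37 of 45 members above 0, 0.55 in F1 fish with 35 above 0, and 0.44 in Keithly with 35 above 0. The medians of all features tested were -0.01, 0.15 and -0.02. Among the F1 controls of that day, replicate 1 held 0.614 M reads. Without the F1 libraries under 1 M reads the members' F1 median was 0.53, and that of all features is not given here. A fold change was positive in all 3 strains for 26 of 45 members and negative in all 3 for 1, where 26.1% of the features in the 3 tables were positive in all 3. All 28 °C libraries were above all 15 °C libraries on day 3 for 19 members in Little Jacks (17.4% of all features), 15 in F1 fish (15.5%) and 16 in Keithly (14.7%). They were all below for 2 members in each strain, where this held for 17.1%, 11.5% and 13.7% of all features. For 9 members the 28 °C libraries were all above in every strain, which held for 4.68% of all features.

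A call on day 3 in at least 1 strain was made for 12 of the 45 members, where 9.96% of the features in the 3 tables had one. Of these 12, 6 were called in 1 strain, 5 in a pair of strains and g07822 in all 3, a pattern that 1.56% of the features in the 3 tables shared. Among the other day 1 features, 225 of 249 were called in at least 1 strain and 160 in all 3. In Little Jacks the called members were spread over the ranks, at 1, 13, 20, 30, 35 and 37. Most of those called in the other strains were among the highest, with ranks 1, 2, 5, 7 and 29 in F1 fish. Keithly had ranks 1, 2, 3, 5, 7, 14, 29 and 37.

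The member ranked 29 had the largest mean day 3 fold change of the 45, 1.27 on the log2 scale. On day 3 it had 16.6, 17.2 and 12.7 at 28 °C in Little Jacks, against 8.11, 12.8 and 10.0 at 15 °C, a log2 fold change of 0.57 that was not called (SE 0.24, limma adjusted p = 0.152). F1 fish had 18.4, 10.5 and 16.3 at 28 °C, against 4.04, 3.42 and 6.33 at 15 °C, a log2 fold change of 1.61 (SE 0.33, limma adjusted p = 0.00271). The value of 4.04 was that of replicate 1, a library of 0.614 M reads. Keithly had 15.6, 23.8 and 21.5 at 28 °C, against 3.60, 6.97 and 9.34 at 15 °C, a log2 fold change of 1.61 (SE 0.36, limma adjusted p = 0.00715). The groups overlapped in Little Jacks and did not in the other strains. The Little Jacks effect minus that of Keithly was -1.04 on the log2 scale, and that difference was not called (limma adjusted p = 0.767).

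The member ranked 5 had the smallest day 3 p-value of the 45, in Keithly. There its day 3 values were 169, 221 and 194 at 28 °C, against 73.1, 86.5 and 83.5 at 15 °C, a log2 fold change of 1.25 (SE 0.16, limma adjusted p = 2.63e-05). F1 values were 193, 181 and 160.5 at 28 °C, against 130.5, 95.8 and 91.2 at 15 °C, a log2 fold change of 0.76 (SE 0.23, limma adjusted p = 0.0397). In Little Jacks they were 141, 183 and 162 at 28 °C, against 85.4, 119 and 113 at 15 °C, a log2 fold change of 0.62 (SE 0.25, limma adjusted p = 0.146). All 28 °C libraries were above all 15 °C libraries in every strain, including Little Jacks, where the test made no call. The member ranked 30 was called in Little Jacks, where it had 13.5, 16.9 and 12.2 at 28 °C on day 3, against 5.56, 4.27 and 3.92 at 15 °C (log2 fold change 1.53, SE 0.31, limma adjusted p = 0.00372). It was not called in F1 fish (0.66, SE 0.28, limma adjusted p = 0.137) or Keithly (0.91, SE 0.66, limma adjusted p = 0.505). Its day 3 groups overlapped in F1 fish and did not in Keithly. It was at 0 in Keithly 15 °C day 28 replicate 1, a library that enters the spread of the Keithly fit. Neither difference between strains was called for it.

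The lowest mean day 3 fold change belonged to the member ranked 39, at -0.72 on the log2 scale. In F1 fish it had 0.725, 2.47 and 1.82 at 28 °C on day 3, against 8.07, 10.3 and 2.74 at 15 °C, so that the 28 °C libraries were all below, with a log2 fold change of -1.72 that was not called (SE 0.60, limma adjusted p = 0.0721). In Little Jacks it had 1.18, 2.26 and 1.76 at 28 °C, against 1.74, 1.51 and 5.45 at 15 °C, and in Keithly 1.54, 1.29 and 0.896 at 28 °C, against 1.20, 1.74 and 0.778 at 15 °C. The groups overlapped in both parental strains.

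**Figure D4:**
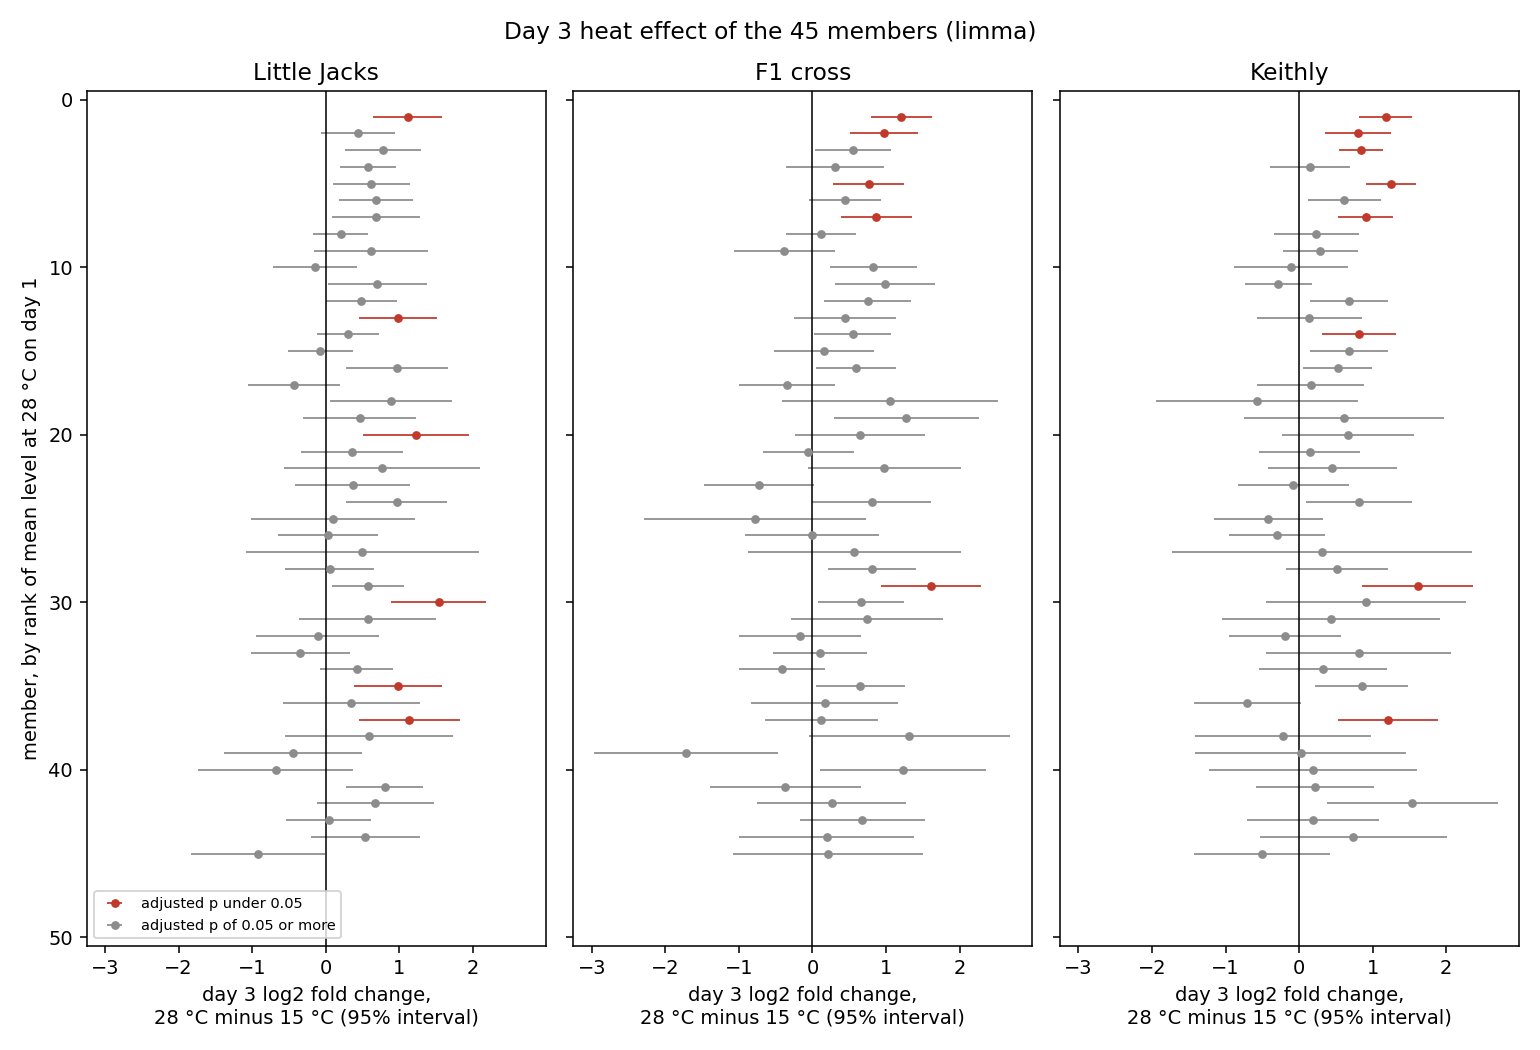
Day 3 log2 fold change, 28 °C minus 15 °C, from limma (horizontal axis) of the 45 members in rank order (vertical axis) in the 3 strains, with 95% intervals. Red points passed an adjusted p under 0.05 over all features and grey points did not. There are 6 red points in Little Jacks, 5 in F1 fish and 8 in Keithly, and all lie above 0.

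For the day 3 response, the tests of strain differences called 0 members, which is near the small shares called over all features. For the day 3 effect in Little Jacks minus that in Keithly, limma called 0 of 45 members, with 0.0904% of all features called. An unadjusted p under 0.05 was found for 3 of the 45 and for 5.69% of all features. For the effect in F1 fish minus the parental mean it called 0 of 45, with 1.61% of all features called. Here 6 of the 45 and 15.2% of all features had an unadjusted p under 0.05. edgeR's quasi-likelihood test on recovered reads also called 0 in both. It had 7 and 6 members at an unadjusted p under 0.05, with 7.80% and 11.9% of all features. The estimates for Little Jacks minus Keithly ran from -1.16 to 1.46 on the log2 scale (median 0.07), and their 95% interval reached a median of 0.95 to either side. Those for F1 fish minus the parental mean ran from -1.50 to 1.48 (median -0.09), with a median reach of 0.83. These intervals are not adjusted for the number of features, so a call needs a larger difference than they show, and estimates as far from 0 as 1.46 and -1.50 were not called. Without 1 library of day 3 at a time the second count was 0 or 1 and the first remained 0. In simulated data, Little Jacks minus Keithly missed an earlier limit on the share of 4-fold changes recovered. Its count of 0 thus does not show that the effects were equal.

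On day 7 the members' median difference was 0.24 on the log2 scale in Little Jacks, 0.47 in F1 fish and 0.24 in Keithly. By day 28 it was 0.25 in Little Jacks, -0.02 in F1 fish and 0.37 in Keithly. Without the libraries that stood apart the day 28 medians were 0.17, -0.06 and 0.65. The Keithly 15 °C libraries then left included replicate 1, of 0.276 M reads, in which 10 of the 45 members were at 0. With values scaled to the column total, limma's day 28 median of the members changed sign in Little Jacks, to -0.23 in place of 0.14, and in F1 fish, to 0.14 in place of -0.03. On day 28, 16 members were below 0 in Little Jacks, 23 in F1 fish and 12 in Keithly, which is 35.6%, 51.1% and 26.7% of the 45, where 49.8%, 53.5% and 46.2% of the features in the 3 tables were below 0. A difference of -1 or less was reached by 0 members in Little Jacks, 6 in F1 fish (13.3%) and 1 in Keithly (2.22%), where 3.28%, 11.0% and 6.83% of those features did. The F1 shares of the members were thus near those of all features. Without the libraries that stood apart, 17, 25 and 10 members were below 0 and 1, 8 and 0 were at -1 or less.

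The 6 members at -1 or less in F1 fish on day 28 had ranks 18, 39, 38, 45, 27 and 17, with differences of -2.86, -2.53, -2.03, -1.89, -1.61 and -1.17. The member ranked 18 had 0, 2.14 and 0 at 28 °C there, against 3.14, 2.11 and 5.95 at 15 °C. The member ranked 39 had 0, 1.43 and 0.809 at 28 °C, against 6.87, 7.04 and 12.0 at 15 °C. For both, replicate 1 at 28 °C was at 0, a library of 0.455 M reads in which 5 of the 45 members were at 0. The groups of the member ranked 18 overlapped and those of the member ranked 39 did not.

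The values at both temperatures moved between days 1 and 28. From day 1 to day 28 the median of the 28 °C libraries fell by 2.60 on the log2 scale in Little Jacks, by 2.92 in F1 fish and by 2.55 in Keithly, as medians over the members, and it was lower on day 28 than on day 1 for 45 of 45 members in each strain. Over the same time the 15 °C median moved by 0.21, 0.18 and 0.05. The fall at 28 °C was larger than the rise at 15 °C for 45 members in Little Jacks, 44 in F1 fish and 45 in Keithly. The rule used these days, and it asked for an overall mean of at least 5, which favours features that were high at 28 °C on day 1, so these movements are a description.

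The member ranked 11 was the 1 member whose 15 °C level also rose by at least 1 on the log2 scale from day 1 to day 28 in all 3 strains, by 1.91 in Little Jacks, 1.58 in F1 fish and 1.32 in Keithly. A rise of that size in at least 1 strain was seen in 5 members. In Little Jacks it had 126, 249 and 217 at 28 °C on day 1, against 24.7, 26.1 and 23.3 at 15 °C, and 52.1, 50.8 and 30.3 at 28 °C on day 28, against 94.1, 85.8 and 116 at 15 °C. In Keithly it had 187, 237 and 206 at 28 °C on day 1, against 35.0, 47.8 and 22.6 at 15 °C, and 50.3, 72.7 and 66.8 at 28 °C on day 28, against 83.2, 88.4 and 115 at 15 °C. In both strains every 28 °C library was above the 15 °C libraries on day 1 and below them on day 28. In F1 fish the day 28 values overlapped, at 77.8, 84.7 and 111 at 28 °C, against 91.1, 56.0 and 73.5 at 15 °C.

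To measure the pattern in libraries that did not choose it, features were also chosen in a pair of strains by the same limits and then measured in the strain left out. Chosen without Little Jacks, 76 features were listed, and 45 of them met the rule in Little Jacks as well. Chosen without F1 fish, 77 were listed and 45 met it there. Chosen without Keithly, 77 were listed and 44 met it there. The features that met it in the strain left out were all members, so these counts restate the choice of members.

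The day 1 rise recurred in the strain left out. On day 1 limma called 69 of 76 features higher at 28 °C in Little Jacks, or 90.8% with 7.12% of all features called higher. It called 70 of 77 in F1 fish, or 90.9% with 6.7% of all features, and 73 of 77 in Keithly, or 94.8% with 7.25% of all features. The median day 1 fold changes were 2.30, 2.54 and 2.75 on the log2 scale. A day 1 difference of at least 2 by the rule was met by 49, 58 and 69 of the listed features. The shares of all features that met it in each strain are not given here.

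The later days of the strain left out had fewer calls. On day 3 limma called 10 of 76 features higher in Little Jacks (4.12% of all features), 12 of 77 in F1 fish (6.38%) and 20 of 77 in Keithly (4.03%). On day 7 it called 8 in Little Jacks (2.35% of all features), 11 in F1 fish (2.48%) and 15 in Keithly (2.98%). On day 28 it called 3 higher in Little Jacks (1.87% of all features), 1 in F1 fish (2.57%) and 23 in Keithly (5.05%). Calls lower were 0, 0 and 2 on day 7 and 2, 3 and 1 on day 28 in the same order. The shares of all features called lower on those days are not given here. In Keithly the 23 made 29.9% of the features chosen in the other strains, with a median log2 fold change of 0.69 where all features had 0.17. The Keithly 15 °C day 28 replicate 1 held 0.276 M reads, the fewest of the 69 libraries with recovered reads. Without it the count was 12, and counts without other single libraries are given below. Of these 23, all 23 were also called higher in Keithly on day 1, while 15 had such a call on day 3 and 12 had one on day 7. The list was chosen for a day 1 rise in the other strains, and 73 of its 77 features were called on day 1 in Keithly. Nothing is thus read from the 23 of 23. Such overlaps among all features called on day 28 are not given here. The medians on day 28 were 0.20 in Little Jacks and -0.14 in F1 fish. Whether the day 28 effects of these features differ between strains was not tested.

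Single libraries moved several of these counts by more than 1.5 times. On day 3 the Little Jacks count was 6 without any 1 of 28 °C day 3 replicate 2 and 15 °C day 3 replicates 1 and 2, and 22 without the libraries that stood apart. On day 7 it was 1 without 28 °C day 7 replicate 1, 0 without 28 °C day 7 replicate 2, 2 without 15 °C day 7 replicate 2, 1 without 15 °C day 7 replicate 3, and 18 without the libraries that stood apart. On day 28 it was 1 without 28 °C day 28 replicate 2, without 28 °C day 28 replicate 3 or without 15 °C day 28 replicate 3, and 0 without 15 °C day 28 replicate 1 or 2. The F1 count on day 7 was 7 without 28 °C day 7 replicate 1 and 6 without 28 °C day 7 replicate 3. Its single day 28 call was lost without any 1 of 28 °C day 1 replicate 3, the 3 replicates of 28 °C day 3, 28 °C day 7 replicate 1, 28 °C day 28 replicates 1 and 3, 15 °C day 1 replicate 2 and all replicates of 15 °C on days 7 and 28, and the count was 3 without 28 °C day 28 replicate 2 and 2 without 15 °C day 3 replicate 1. The Keithly count was 8 on day 7 without 28 °C day 7 replicate 2. On day 28 it was 14 without 28 °C day 28 replicate 1, 10 without 28 °C day 28 replicate 2, 12 without 15 °C day 28 replicate 1 and 14 by edgeR.

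**Figure D5:**
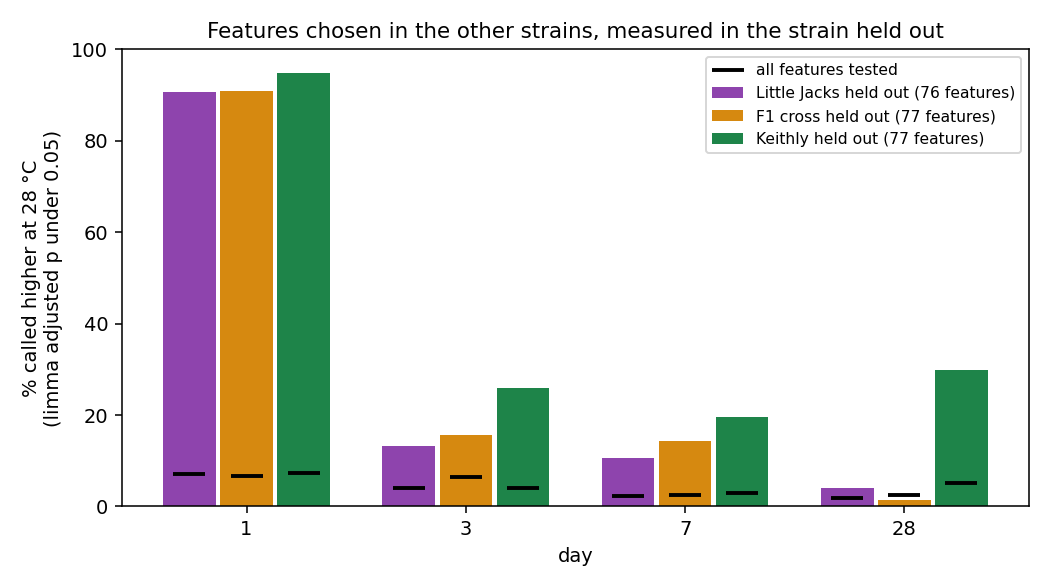
Share of features called higher at 28 °C (percent, limma adjusted p under 0.05) by day, for features chosen by the same limits in the other strains and measured in the strain left out (76 for Little Jacks, 77 for F1 fish and 77 for Keithly). Bars are the chosen features and black lines all features of that strain. The bars stand at 90.8% to 94.8% on day 1 and fall to 1.30% to 29.9% on day 28, with Keithly highest.

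The members were features of modest level. Their mean value over the 36 libraries at 15 °C had a median of 8.44 (range 2.40 to 213), where the eligible features had a median of 15.1. The overall mean of at least 5 includes the 28 °C libraries, so features high there could pass with a lower 15 °C mean. This comparison is thus a description. Of the 45, 10 had a 15 °C mean under 5, 20 had 5 to 20 and 15 had 20 or more, and all 45 passed the filter on low values of the test. The standard deviation between libraries of a group, on the log2 scale, had a median of 0.42 at 28 °C and 0.43 at 15 °C, where eligible features had 0.37 at 28 °C and 0.38 at 15 °C. Of the 45, 5 were at 0 in at least 1 library at 28 °C and 10 in at least 1 at 15 °C. All 5 were at 0 in F1 28 °C day 28 replicate 1 (0.455 M reads). All 10 were at 0 in Keithly 15 °C day 28 replicate 1 (0.276 M reads).

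Within groups the members varied together only weakly. Pearson's r of the deviations from group means over 72 libraries had a median of 0.16 over the 990 pairs of members, with 730 pairs above 0, and the median between a member and another eligible feature was 0.05. The points of each pair share libraries, and with them depth and composition, so these are descriptions. Across the 45 members, r of the day 3 differences was 0.23 between Little Jacks and F1 fish, 0.36 between Little Jacks and Keithly and 0.46 between F1 fish and Keithly.

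Which features were counted as members depended on single libraries and on the scaling. Leaving out each of the 72 libraries in turn gave 33 to 50 members, and 12 of the 45 were members in all 72 repeats. Without the libraries that stood apart there were 38, of which 31 were shared, making 68.9% of the 45 and 81.6% of the 38. With values scaled to the column total there were 17, of which 12 were shared, making 26.7% of the 45 and 70.6% of the 17. That scaling moves the day 1 median over all features by -0.81 in Little Jacks, -0.65 in F1 fish and -0.69 in Keithly (log2), so day 1 differences are lower by about that much against a fixed limit of 2.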

How the data were processed

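The authors deposited 1 table per strain with normalised signal values, in which the reads of a feature are scaled by the effective size of the library, and the tables were normalised separately, so levels set across strains are not on 1 scale. CASAVA 1.8, Bowtie and edgeR were used per the submitters' processing notes. Not given in the sources used here are the reference transcriptome, the annotation and any filter. Columns were tied to groups by name. For the 28 °C day 1 group of F1 fish, the descriptions of its 3 samples point to the table of Little Jacks, but columns so named are in that of F1 fish. Per-sample columns left unused numbered 0.

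The deposited values of 69 libraries came out as whole reads in 100% of cases within 0.01 after division by their smallest step. The other 3 were left out of edgeR alone. Column sums ran from 0.819 to 1.77 M. Of 67 pairs of replicates, 0 were identical, and the lowest median chi-square of their reads was 0.916, where sampling noise alone gives 0.455. The labels do not say whether pools of a group came from separate tanks.

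limma 3.58.1 (R 4.3.3) with a trended prior tested log2(value + 0.5) in all 24 libraries of a strain together, with a mean for each group. The filter on low values was 1 in 3 or more libraries. Calls were two-sided at a Benjamini-Hochberg adjusted p under 0.05 over all features. On this scale the change of a low feature is understated. Strains were compared by subtracting their heat effects in a fit of all 72 libraries. edgeR 4.0.16 and Python 3.11.15 were also used. The fits were tested on simulated data for bias and false calls. An earlier limit on the share of 4-fold changes recovered was dropped after Little Jacks minus Keithly missed it. The members, lists and tests were chosen with earlier results of these data known. The naming rule gave identifiers to the member with the highest day 1 level at 28 °C and to the next. Other ranks were singled out after their values were seen, as the extremes stated. Alternatives were the pseudocount, filter, scaling, tool, libraries in the fit, leaving out each library and a block for the number in the column names.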

Additional observations from a re-analysis of the deposited data

Results flagged for a closer look

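The member ranked 11 by day 1 level had day 3 fold changes of opposite sign in F1 fish and in Keithly. In F1 fish all 3 libraries at 28 °C (82.9, 90.5 and 83.7) were above all 3 at 15 °C (32.3, 47.3 and 51.8), with a log2 fold change of 0.99 (SE 0.32, limma adjusted p = 0.0559). In Keithly all 3 libraries at 28 °C (88.6, 86.7 and 75.9) were below all 3 at 15 °C (108, 90.0 and 108), with a log2 fold change of -0.28 (SE 0.22, limma adjusted p = 0.545). Neither effect was called, and the difference between these strains was not tested itself. F1 fish minus the parental mean was 0.78 on the log2 scale (limma adjusted p = 0.302), and Little Jacks minus Keithly was 0.98 (limma adjusted p = 0.767), neither of which was called. In Little Jacks the day 3 values were 62.0, 74.0 and 53.9 at 28 °C, against 56.4, 26.1 and 38.4 at 15 °C, and the groups overlapped. The 15 °C level of this member also rose between days 1 and 28 in every strain. From day 1 to day 3 its 15 °C mean went from 24.7 to 40.3 in Little Jacks and from 24.9 to 43.8 in F1 fish. In Keithly it went from 35.1 to 102. With 3 libraries in each group, a single library cannot be tested as an outlier.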

How the results depend on the processing

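Counts are features called higher unless stated. With values scaled to the column total, day 3 calls among the members were 1, 2 and 3 in Little Jacks, F1 fish and Keithly in place of 6, 5 and 8, and the rule found 17 members in place of 45. In Little Jacks as the strain left out, the same scaling left 3 calls for day 3, 0 for day 7 and 0 for day 28, in place of 10, 8 and 3. F1 fish had 6 on day 3 and 5 on day 7 in place of 12 and 11, and Keithly 9 on day 7 in place of 15. The cause was not tested. The Little Jacks member count on day 3 was 16 without the libraries that stood apart, 12 from day 3 alone and 10 by edgeR. In Little Jacks left out, the counts without those libraries were 22 on day 3 and 18 on day 7, an alternative chosen after seeing the data. edgeR gave 1 on day 28 in Little Jacks, 0 in F1 fish and 14 in Keithly.

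Without 1 library at a time, day 3 member calls ran from 2 to 10 in Little Jacks, 2 to 8 in F1 fish and 4 to 11 in Keithly. Calls lower ran from 0 to 0, 0 to 1 and 0 to 0 in the same order. Calls ran from 0 to 0 for Little Jacks minus Keithly and 0 to 1 for F1 fish minus the parental mean. In the strain left out on days 1, 3, 7 and 28, Little Jacks ran from 69 to 70, 6 to 14, 0 to 9 and 0 to 3. F1 fish ran from 65 to 72, 9 to 17, 6 to 14 and 0 to 3, and Keithly from 70 to 76, 15 to 29, 8 to 18 and 10 to 32. The member count ran from 33 to 50. Repeats over days 1, 7 and 28, over the strain left out and for the member count were chosen after seeing the data.

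The members' median day 3 fold changes and those of g07822 and g00749 kept their sign under the alternatives run. A count of calls has no sign, so only its size can be compared. With repeats without single libraries set aside, 133 values of the counts stayed within 1.5 times and 22 moved further. The 133 include counts with no calls in either fit, such as members called lower in Little Jacks. They are thus a weak measure of stability. The day 28 medians that changed sign with the column total are given above. Depth limits members of low level most, in the shallowest libraries. A count of 3 reads was worth 0.132 to 9.24 over the libraries with recovered reads. The highest was that of Keithly 15 °C day 28 replicate 1 (0.276 M reads), where the median 15 °C mean of the members was 8.44 over all strains.

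Columns of a strain and day share the numbers 1 to 3 between temperatures, and no label says that a number marks a shared tank or batch. Deviations from group means at 28 °C and 15 °C had a Pearson's r, across features, of -0.57 to 0.74 over the 36 pairs of columns with the same number. It was over 0.1 in 5 of the 36 and in 0 of the 9 of day 3, and 17 of the 36 correlated best with their own number. The highest values were 0.74 and 0.44, for numbers 2 and 3 of F1 fish on day 28. The lowest were -0.49 and -0.57, for numbers 2 and 3 of Keithly on day 28. A best match among 3 columns also arises by chance, so this check cannot show whether a number marks a shared tank or batch. The main fits used no block for the number. With that number as a replicate block, added after seeing the data, day 3 member calls were 3 in Little Jacks, 6 in F1 fish and 5 in Keithly. In the strain left out, calls were then 2 on day 7 in Little Jacks and 0 on day 28 in F1 fish. The day 3 call of g00749 in Keithly had a limma adjusted p = 0.0757 in that fit.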
